A study of Mus musculus with 3 samples.

Results

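The numbered Zfp genes are the mouse genes whose symbol is Zfp followed by digits only, and they were chosen by the gene name that the authors' annotation gave to each ChIP-seq peak. Of the 9838 genes that were given a peak in the Seh1 or the IgG list, 123 were numbered Zfp genes. The RefSeq gene table of the same mouse assembly holds 372 of them, 367 of them protein-coding, so that 249 were given none. Chromatin immunoprecipitation followed by sequencing (ChIP-seq) had been used to ask where the nucleoporin Seh1, a scaffold subunit of the nuclear pore, lies on chromatin in proliferating neural stem cells. All 3 libraries came from wild-type primary neural stem cells, cultured from newborn (P0) mouse cortex in growth medium with EGF and bFGF. One was precipitated for Seh1, another with IgG as the background control, and the third was the input, which was not analysed here on its own. With 1 library in each group no replicate error can be given, the labels name no mouse strain, and peak lists hold no expression level against which the cell type could be checked. The Seh1 list held 16113 peaks and the IgG list 5314; no height or read count came with a peak, so depth is unknown and a longer list cannot be told apart from deeper sequencing.

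Most mouse Zfp genes encode zinc finger proteins of the C2H2 type, in which a string of fingers reads DNA, and the whole finger array is commonly encoded by the last exon. Many also carry a KRAB domain, which recruits the corepressor Trim28 and the histone methyltransferase Setdb1 to silence retrotransposons, and these KRAB genes arose by tandem duplication into clusters of similar copies. The symbol is a name rather than a family, however, and it also covers unrelated proteins such as Zfp36 (tristetraprolin), an RNA-binding protein that destabilises messenger RNA.

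How alike copies can be is seen in 3 genes of chromosome 4, whose peaks are described further on. The RefSeq promoter windows below (GRCm38.p6, the mm10 assembly) run 5′ to 3′ from 250 bases before to 50 bases after the start site. They belong to Zfp600 on the plus strand, chr4:146156577-146156876, to Zfp979 on the minus strand, chr4:147642459-147642758, and to Zfp980 on the plus strand, chr4:145670447-145670746. Capitals mark bases with no identical partner in the Zfp600 window when each was aligned with it end to end; there are 11 in Zfp979 and 29 in Zfp980.
Zfp600: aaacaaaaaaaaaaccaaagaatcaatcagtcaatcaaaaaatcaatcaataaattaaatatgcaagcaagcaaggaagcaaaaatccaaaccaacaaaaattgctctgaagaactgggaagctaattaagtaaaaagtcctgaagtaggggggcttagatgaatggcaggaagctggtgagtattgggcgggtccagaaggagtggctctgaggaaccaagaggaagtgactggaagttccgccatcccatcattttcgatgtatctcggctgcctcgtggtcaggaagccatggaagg
Zfp979: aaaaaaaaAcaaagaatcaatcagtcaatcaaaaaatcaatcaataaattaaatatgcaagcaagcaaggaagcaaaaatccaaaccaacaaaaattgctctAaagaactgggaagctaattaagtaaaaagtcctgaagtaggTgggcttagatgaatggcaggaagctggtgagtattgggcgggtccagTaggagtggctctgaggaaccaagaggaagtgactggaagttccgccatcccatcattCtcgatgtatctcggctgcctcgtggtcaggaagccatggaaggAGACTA
Zfp980: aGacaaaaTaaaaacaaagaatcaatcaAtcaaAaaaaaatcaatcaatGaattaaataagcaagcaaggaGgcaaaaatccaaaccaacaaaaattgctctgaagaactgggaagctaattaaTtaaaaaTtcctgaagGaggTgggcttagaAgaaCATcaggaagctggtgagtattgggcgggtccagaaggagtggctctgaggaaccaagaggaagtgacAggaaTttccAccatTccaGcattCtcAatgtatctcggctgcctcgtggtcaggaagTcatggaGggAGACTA
Over the alignment the Zfp600 and Zfp979 windows were 94.4% identical and the Zfp600 and Zfp980 windows 88.6%.

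A Seh1 peak was given to 97 numbered Zfp genes and an IgG peak to 54. The 97 are 26.1% of the 372 genes (95% exact binomial, Clopper-Pearson, interval 21.7 to 30.9%), and of all 21779 protein-coding genes 31.9% were given a Seh1 peak. The 54 genes with an IgG peak are 14.5% (11.1 to 18.5%), against 11.3% of all protein-coding genes. Relative to the background, numbered Zfp genes were thus below it in the Seh1 list and at its level or slightly above it in the IgG list. These intervals, like all others here, cover counting error only and treat genes or peaks as independent, which neighbours are not; no test compared the libraries. Both lists gave a peak to 28 of the genes, 7.53% of the 372 (5.06 to 10.7%), with 6.42% of protein-coding genes as background. The 28 are 28.9% of the genes with a Seh1 peak and 51.9% of those with an IgG peak. Among all protein-coding genes 1399 had both, of 6938 with a Seh1 peak and 2471 with an IgG peak.

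The peaks themselves were more unequal. Numbered Zfp genes received 165 Seh1 peaks, 1.02% of that list, and 142 IgG peaks, 2.67% of that list. In the Seh1 list 61 genes had 1 peak, 16 had 2, 13 had 3 and 7 had 4 or more. In the IgG list 34 genes had 1 peak, 5 had 2, 3 had 3 and 12 had 4 or more. The genes with many peaks differed between the lists, as the next paragraphs show.

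Zfp423 had the most Seh1 peaks of the numbered Zfp genes, with 6. It encodes a transcription factor with many zinc fingers that is required for cerebellar and midline brain development, and the gene spans 300244 bp on chromosome 8. All 6 peaks lay in its introns, between 7.04 and 42.2 kb from the nearest annotated start site, and 255 to 405 bp wide. The IgG list held 1 peak for Zfp423, 71.4 kb upstream of it, in the smallest width of that list, 236 bp.

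Zfp507, Zfp536 and Zfp644 followed with 5 Seh1 peaks each. The 5 peaks of Zfp536, which encodes a zinc finger protein known to hold back neuronal differentiation, were all intergenic and upstream of the gene, at 9.28, 60.4, 90.5, 92.0 and 95 kb. The peak at 92.0 kb, 672 bp wide, was the widest Seh1 peak after that of Zfp980 among the numbered Zfp genes, and 3 of the 5 peaks lay within 5 kb of each other. Its IgG peak lay at the other side of the start site, inside the gene, 315 kb away. The 5 Seh1 peaks of Zfp507 were also intergenic and upstream, but between 131 and 360 kb away, and its IgG peak lay among them at 209 kb. Zfp644 had 4 Seh1 peaks upstream, at 46.9, 59.6, 78.3 and 103 kb, the last of them 646 bp wide, and 1 more at 94.0 kb, beyond the gene's other end. No IgG peak was given to Zfp644.

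Zfp326, Zfp608 and Zfp618 had 4 Seh1 peaks each. Zfp326, which encodes a subunit of a complex that couples splicing to transcription, had 3 upstream, at 24.6, 49.8 and 69.0 kb, and 1 beyond its end at 56.0 kb. The peak at 69.0 kb lay in an intron of Lrrc8d: a gene name in the lists is that of the nearest start site, whatever gene the peak lies in. Zfp608 had none closer than 120 kb, and its widest, of 625 bp, lay 269 kb upstream. None of these 7 genes lies in a cluster of numbered Zfp genes.

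**Figure D1:**
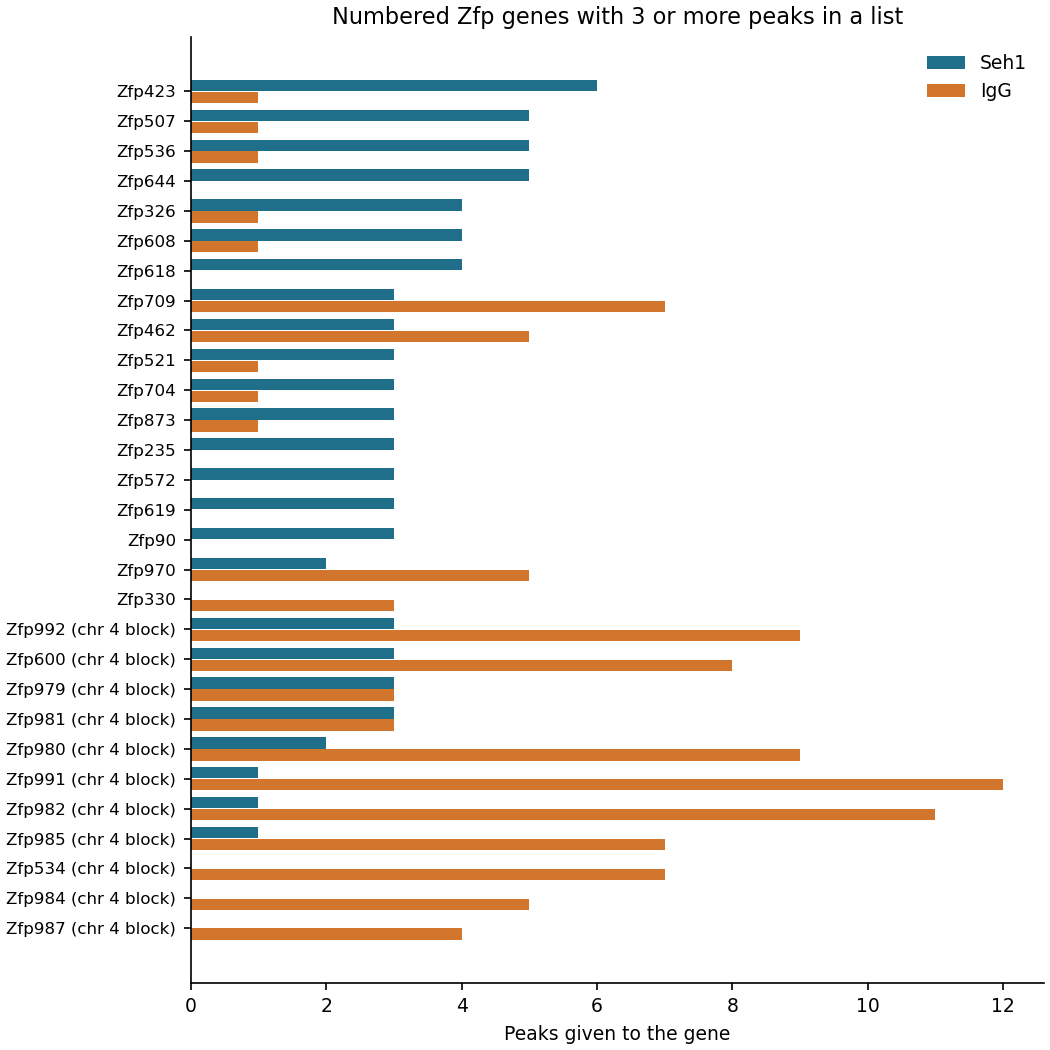
Number of peaks (horizontal axis) given to each numbered Zfp gene that had 3 or more in either list, with 1 bar for the Seh1 list and 1 for the IgG list; there is 1 library per list and so no error bar. Zfp423 leads the Seh1 list with 6 peaks and 1 IgG peak, whereas Zfp991, Zfp982, Zfp980 and Zfp992 of the chromosome 4 block lead the IgG list with 12, 11, 9 and 9 peaks and have 1 to 3 Seh1 peaks.

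Chromosome 7 holds 91 numbered Zfp genes, the highest number and 24.5% of the 372. It had 36 Seh1 peaks, 21.8% of those of numbered Zfp genes, at 22 genes, and 6 IgG peaks, 4.23%, at 5 genes. The 22 genes are 24.2% of its 91, near the 26.1% over all chromosomes. Chromosome 4 holds 28 of the genes and had 25 Seh1 peaks, 15.2% of those of numbered Zfp genes, and 86 IgG peaks, 60.6%. Of all peaks in the lists, chromosome 4 held 6.03% of the Seh1 and 9.18% of the IgG peaks. Chromosome 17, with 41 of the genes, had 8 Seh1 and 6 IgG peaks, and chromosome 13, with 33, also had 8 and 6. The 7 genes of chromosome X had none in either list.

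**Figure D2:**
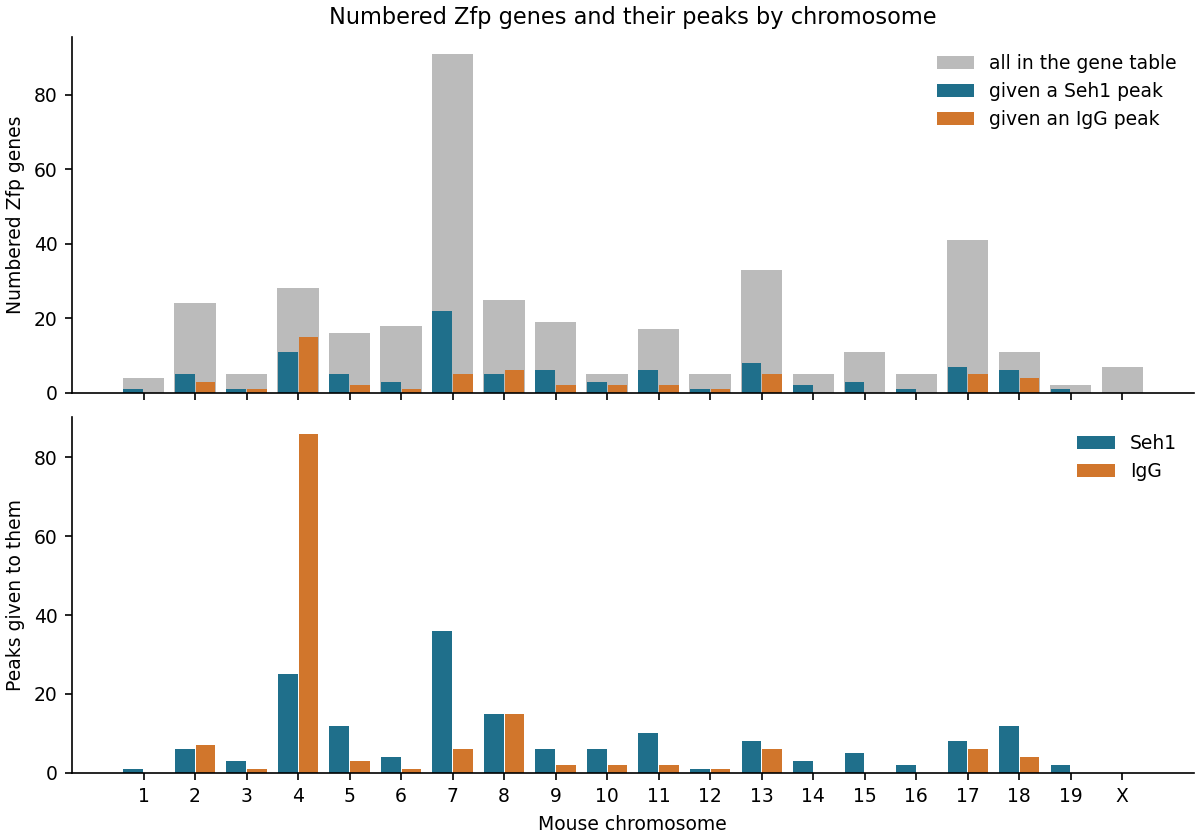
The upper panel counts the numbered Zfp genes of each mouse chromosome, with those given a Seh1 or an IgG peak drawn inside the grey bar of all such genes; the lower panel counts their peaks. Chromosome 7 has the most genes (91) and the most Seh1 peaks (36), and chromosome 4 has 86 of the 142 IgG peaks. There is no replicate and no error bar.

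Clusters were formed from numbered Zfp genes with at most 200 kb between neighbours and at least 5 members. There were 15, holding 137 genes. Within them 30 genes had a Seh1 peak, 21.9% (15.3 to 29.8%), and of the 235 genes outside them 67 had, 28.5% (22.8 to 34.7%); these intervals overlap. For IgG the shares were 12.4% (7.40 to 19.1%) in clusters and 15.7% (11.3 to 21%) outside. Median gene length was similar, 16.8 kb in clusters and 18.3 kb outside. Peaks of clustered genes lay nearer to the start site, at a median of 12.1 kb for Seh1 and 16.5 kb for IgG, against 32.5 and 33.1 kb for those outside. The distance is to the nearest start site of any gene, and clusters are runs of close genes. This difference is therefore not independent of the cluster rule. The Zfp992 to Zfp933 cluster of chromosome 4 gave 57 of the 68 IgG and 12 of the 43 Seh1 peaks of clustered genes. Among them are the 12 IgG peaks and 1 Seh1 peak given to Zfp991, all of which lay before the start of the cluster. The 74 IgG peaks outside clusters include 9, 4 and 8 of the cluster's neighbours Zfp980, Zfp987 and Zfp600.

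Of the 15 clusters, 14 had at least 1 gene with a Seh1 peak and 6 had 1 with an IgG peak. Some of these peaks lay outside the cluster. The spans of Zfp60 to Zfp850 and Zfp786 to Zfp746 held 0 Seh1 peaks. Those of Zfp786 to Zfp746 and Zfp868 to Zfp866 held 0 IgG peaks. The 7 clusters of chromosome 7 hold 57 genes, of which 12 had a Seh1 peak, 21.1% (11.4 to 33.9%), with 16 peaks, an interval that includes the 31.9% of all protein-coding genes. An IgG peak was given to 0 of the 57, which allows a share of up to 5.26%, or 6.27% by the exact interval. Of all protein-coding genes 11.3% had an IgG peak, but most of the 57 are short, at most 24.6 kb long. Protein-coding genes of 2.21 to 13.4 kb had an IgG share of 6.24%, and those of 13.4 to 24.6 kb 7.78%. Whether the 57 lie below genes of their own length was not tested. The cluster from Zfp180 to Zfp575 on chromosome 7, with 12 genes in 0.506 Mb, had 6 Seh1 peaks at 3 genes. The large clusters of chromosome 13 (Zfp712 to Zfp273, 19 genes) and chromosome 17 (Zfp677 to Zfp946, 18 genes) had 3 and 4 Seh1 peaks and 3 IgG peaks each. The chromosome 17 cluster from Zfp871 to Zfp563, with 8 genes, had 0 Seh1 and 2 IgG peaks. Outside chromosome 4 the 14 clusters, with 125 genes, had 31 Seh1 peaks at 24 genes and 11 IgG peaks at 9 genes.

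The exception was distal chromosome 4. The cluster from Zfp992 to Zfp933 held 12 numbered Zfp genes in 1.40 Mb, and its span held 46 Seh1 and 124 IgG peaks of any gene, 32.9 and 88.6 per Mb. The median 1 Mb bin of the genome held 5 Seh1 peaks and 1 IgG peak, and the 95th percentile was 15 and 5. With gaps of up to 500 kb the cluster reached from Zfp990 to Zfp933, chr4:145510759-147849126 in mm10, 2.34 Mb with 16 numbered Zfp genes; this stretch, chosen after its values were seen, is called the chromosome 4 block below. It held 55 Seh1 peaks, 0.341% of the list, and 186 IgG peaks, 3.50% of the list. Numbered Zfp genes accounted for 17 of the 55 and 78 of the 186. The block thus held 10.3% of the Seh1 and 54.9% of the IgG peaks that numbered Zfp genes received. The rest lay with neighbours such as 4933438K21Rik (5 Seh1 and 23 IgG peaks), 1700095A21Rik (6 and 23), Gm13238 (1 and 16) and Rex2 (6 and 8).

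Zfp991 had 1 Seh1 and 12 IgG peaks, Zfp982 had 1 and 11, Zfp980 had 2 and 9, Zfp992 had 3 and 9, and Zfp600 had 3 and 8. Zfp985 had 1 and 7, Zfp534 had 0 and 7, Zfp984 had 0 and 5 and Zfp987 had 0 and 4. Zfp979 and Zfp981 had 3 in each list, and Zfp990, Zfp993, Zfp978, Zfp988 and Zfp933 had none. Each of the 11 genes with any peak therefore had an IgG peak, and none had more Seh1 than IgG peaks, although the Seh1 list is the longer. No Seh1 peak of a numbered Zfp gene in the block overlapped an IgG peak, 0 of 17, which allows a share of up to 17.6%. Of all 55 Seh1 peaks in the block, 6 overlapped an IgG peak, 10.9%. Zfp982 held the widest IgG peak of all numbered Zfp genes, 1320 bp at 832 bp from the annotated start site, chr4:147507771-147509090. Zfp980 held the widest Seh1 peak of all numbered Zfp genes, 694 bp in an RLTR26_Mus repeat 54.2 kb from its start site, at chr4:145724516-145725209.

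Zfp600 and Zfp979, whose promoter windows are printed above, each had a Seh1 peak in an Lx3B and another in an RMER17B2 element. The remaining Seh1 peak lay farther from the start site than this pair in Zfp600 and nearer in Zfp979. Each gene had 3 Seh1 peaks, all in intron 2 of 4. In Zfp600 the first lay 11.3 kb from the start site in an Lx3B element, a LINE. The next lay at 15.9 kb in an RMER17B2 element, a long terminal repeat, and the last at 20.6 kb with no repeat label. In Zfp979 the 3 peaks lay at 3.46 kb with no repeat label, at 8.37 kb in Lx3B and at 13.0 kb in RMER17B2. The centres of the Lx3B and RMER17B2 peaks were 4592 bp apart in Zfp600 and 4627 bp apart in Zfp979. Of the 8 IgG peaks of Zfp600, 7 lay in introns and 1 beyond the gene, whereas Zfp979 had 1 in its last exon, 1 in an intron and 1 upstream. Zfp981 was given another Lx3B peak and Zfp992 another RMER17B2 peak, so that all 3 peaks of each repeat name among numbered Zfp genes lay in the block. The whole Seh1 list held 27 Lx3B and 21 RMER17B2 peaks, of which the block held 4 and 4, and the IgG list held 4 and 0, with 0 and 0 in the block. These repeats were singled out after their values were seen.

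Reads from near-identical copies can be placed on any of them, and the sources used here do not say how such reads were treated. The promoter windows give a measure of likeness: the 12 windows of block genes formed 66 pairs with a median identity of 60.6%, and 10 pairs reached 80%. In the 14 clusters outside chromosome 4 the median ran from 45.8 to 51.3%, and none of them had more than 2 pairs at 80% or above; the larger clusters of chromosomes 13 and 17 had 1 and 2 of 136 pairs each. The 12-gene cluster within the block had a median of 48.4% and 2 of 36 pairs at 80%, so 8 of the 10 pairs in the block involved a gene outside that cluster. The annotation itself placed copies of a transcript of Zfp991 at more than 1 position. The RefSeq gene table has Zfp991 at chr4:147132093-147180579, whereas all 12 of its IgG peaks and its Seh1 peak were assigned to start sites more than 1 kb off this gene. Counts per gene in the block are for that reason uncertain. The part of sequence likeness in the number of IgG peaks was not tested.

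**Figure D3:**
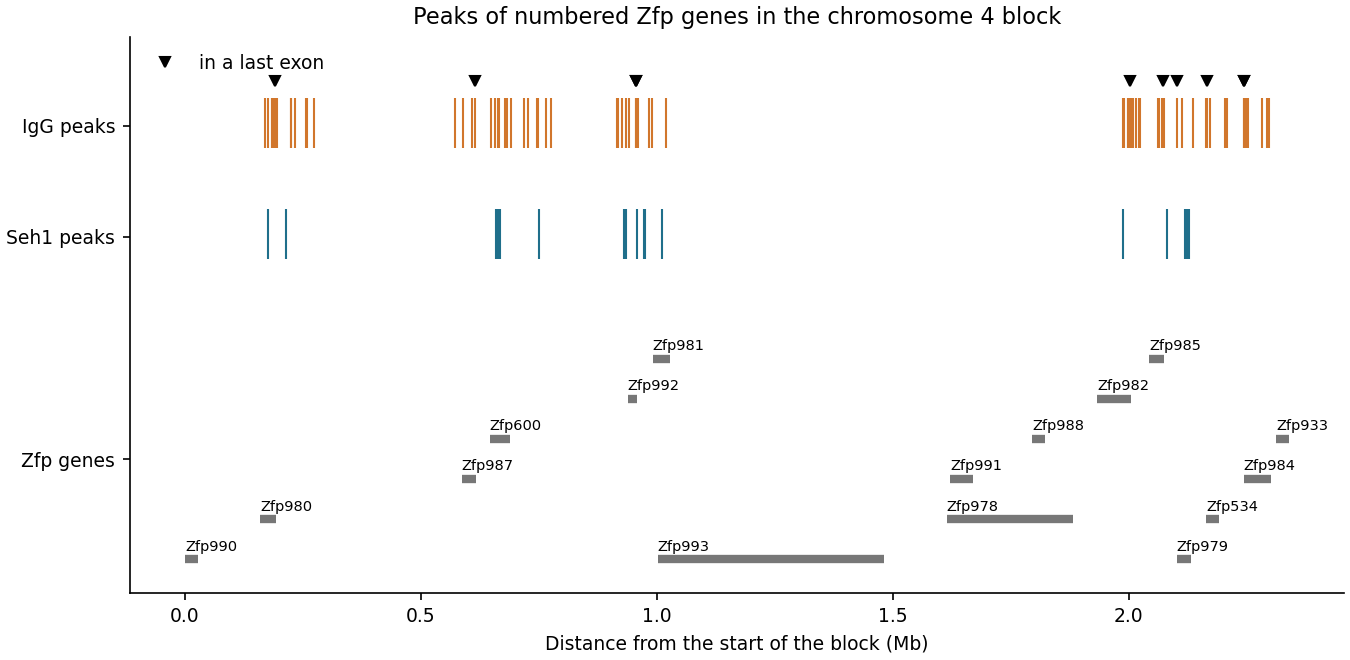
Peaks of numbered Zfp genes in the chromosome 4 block by their distance from its start in Mb (horizontal axis), with a tick for each IgG and Seh1 peak, bars for the 16 numbered Zfp genes, and triangles for last-exon peaks, some of which overlap. The 78 IgG peaks fall in groups along the block and include all 10 last-exon peaks, while the 17 Seh1 peaks include none.

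Outside the block the share of genes with an IgG peak was close to that of all protein-coding genes. Of the 356 genes there, 89 had a Seh1 peak, 25% (20.6 to 29.8%; protein-coding genes outside the block 31.8%), and 43 had an IgG peak, 12.1% (8.88 to 15.9%; 11.3%). They held 148 Seh1 and 64 IgG peaks. Of the 28 genes with a peak in both lists, 8 lay in the block and 20 outside it. Outside it Zfp709 (3 Seh1 and 7 IgG peaks), Zfp462 (3 and 5) and Zfp970 (2 and 5) had the most IgG peaks, and all of these IgG peaks were intergenic. The 7 IgG peaks of Zfp709 lay within 23.1 to 52.3 kb upstream, and its 3 Seh1 peaks at 35.1, 56.1 and 77.3 kb upstream. Zfp709 and Zfp970 were named after their values were seen.

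By annotation class, most peaks of numbered Zfp genes were intergenic or intronic. The class is that of the authors' annotation. Some peaks classed as intergenic lay inside the RefSeq span of their gene, such as the IgG peak of Zfp536. Of the 165 Seh1 peaks 96 were intergenic, 58.2% (50.3 to 65.8%; 54.3% of the whole list), and 54 lay in introns, 32.7% (25.6 to 40.5%; 36.8%). Of these 54, 45 lay in a transcript of the gene they were given to and 17 lay in a first intron, 31.5% (19.5 to 45.6%), against 27.1% of all intronic Seh1 peaks. Of the 142 IgG peaks 68 were intergenic, 47.9% (39.4 to 56.4%; 62.5%), and 55 lay in introns, 38.7% (30.7 to 47.3%; 33.5%). Outside the chromosome 4 block 71.9% of their IgG peaks were intergenic (59.2 to 82.4%; 62.8%) and 28.1% intronic (17.6 to 40.8%; 33.6%). Both of these intervals include the share of the list. Neither list had a peak of a numbered Zfp gene in the promoter class, which 0.881% of all Seh1 and 0.452% of all IgG peaks had; a count of 0 allows a share of up to 1.82% of 165 and 2.11% of 142 peaks. The RefSeq promoter windows, 370 for 307 of the genes, were overlapped by 0 Seh1 and 0 IgG peaks. A background share over the windows of all genes is not given here. Of all protein-coding genes only 1.11% had a Seh1 peak and 0.115% an IgG peak within 1 kb of the start site.

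The transcription termination site (TTS) class, which covers the surroundings of a transcript's end, held 7 Seh1 peaks, 4.24% (1.72 to 8.55%), and 1.03% of the whole list. In 4 of them the transcript was the gene's own, namely in Zfp750, Zfp667, Zfp773 and the block gene Zfp992. The other 3 lay at the end of a neighbour, those of Zfp389, Zfp57 and Zfp14 at the ends of Zkscan8, Mog and Zfp568. The IgG list had 4 TTS peaks, 2.82% (0.773 to 7.06%; 0.979%), all in the block.

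In exons the share was above that of the whole list for IgG and not for Seh1. The exon class held 6 Seh1 peaks of numbered Zfp genes, 3.64% (1.35 to 7.75%; 5.37% of the whole list), at 5 genes, 1.34% of the 372 genes, with 3.34% of protein-coding genes as background. It held 11 IgG peaks, 7.75% (3.93 to 13.4%), against 1.09% of the whole list, at 7 genes, 1.88%, with 0.202% as background. All 11 IgG exon peaks lay in the block. Outside it 0 of 64 IgG peaks were exonic, which allows a share of up to 4.69%, and 6 of 148 Seh1 peaks were, 4.05% (1.5 to 8.61%).

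**Figure D4:**
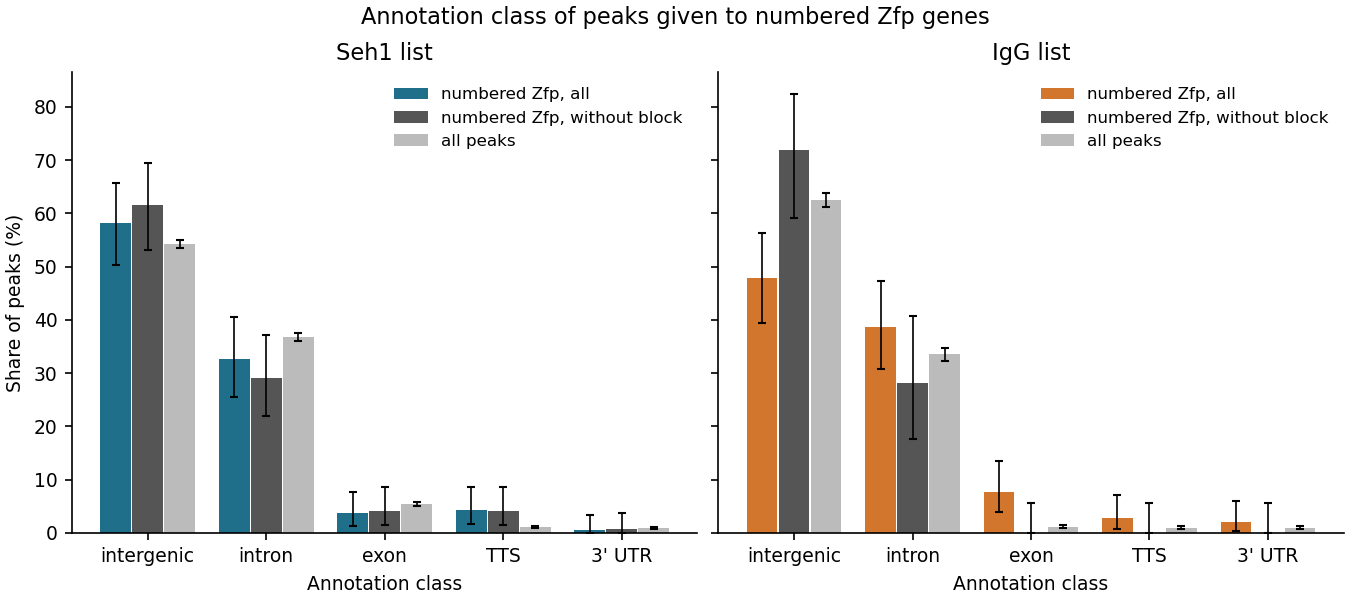
Share of peaks in 5 annotation classes (vertical axis, percent) for all peaks of numbered Zfp genes, for those outside the chromosome 4 block and for the whole list, in the Seh1 and IgG panels; error bars are 95% exact binomial intervals of counting error. The IgG exon share of 7.75% falls to 0 without the block, while the Seh1 exon share goes from 3.64 to 4.05%.

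Last exons, which in C2H2 genes usually hold the fingers, carried 3 Seh1 and 10 IgG peaks by the annotation text. The 3 Seh1 peaks were at 3 genes, 0.806% of the 372 (0.167 to 2.34%), with 0.565% of protein-coding genes as background; they are 3 of 6 exon peaks, against 140 of 866 (16.2%) in the whole list. Zfp235 had a peak of 269 bp in exon 5 of 5, chr7:24141087-24141355, 8849 bp from the start site. A second Seh1 peak of Zfp235 lay in exon 5 of 6 of another transcript, chr7:24138149-24138508, and the third one, 531 bp wide, lay past the gene's end in a B1_Mus2 repeat. Zfp637 had a peak of 354 bp in exon 3 of 3, chr6:117845402-117845755. Zfp819 had a peak of 391 bp in exon 4 of 4, chr7:43617387-43617777. None of these 3 genes was given an IgG peak, and all 3 peaks lay in an exon of the gene's own transcript. The other exon peaks lay in exon 12 of 30 of Zfp236 and, for the peak given to Zfp950, in exon 12 of 16 of a Grk5 transcript. A further last-exon Seh1 peak, in exon 4 of 4 of Zfp879, was given to its neighbour Zfp354c and is not counted above.

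The 10 last-exon IgG peaks were at 7 genes, 1.88% of the 372 (0.760 to 3.84%), with 0.0689% of protein-coding genes as background. The whole IgG list held 21 last-exon peaks among 58 exon peaks, so numbered Zfp genes of the block held 10 of the 21. Zfp534 had the widest of the 10, 1018 bp in exon 4 of 4, chr4:147674903-147675920. Zfp987 had a peak of 694 bp in exon 4 of 4, and Zfp979, Zfp980 and Zfp982 had peaks of 423, 283 and 308 bp in exon 5 of 5. Zfp985 had a peak of 316 bp in exon 6 of 6. These 6 peaks lay in the named gene's own transcript. A pair given to Zfp534 lay in exon 6 of 6 of Zfp984, and a pair given to Zfp992 lay in exon 7 of 7 of a copy of the Zfp991 transcript. A further last-exon IgG peak, in exon 4 of 4 of Zfp981, chr4:146537453-146537812, was given to the neighbour 1700095A21Rik and is not counted above. Without the block no last-exon IgG peak of a numbered Zfp gene remained.

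The distance to the annotated start site had a median of 24.6 kb (quartiles 9.56 and 65.9 kb) over the 165 Seh1 peaks, against 37.8 kb over the whole list. For the 142 IgG peaks it was 22.1 kb (10.8 and 43.7 kb), against 57.4 kb. Without the block the medians were 26.7 kb for Seh1 and 42.1 kb for IgG, and inside it 13.0 and 18.5 kb. Within 10 kb lay 43 Seh1 peaks, 26.1% (19.5 to 33.5%; 18.1% of the whole list), and 34 IgG peaks, 23.9% (17.2 to 31.8%; 13.4%). Within 5 kb lay 11 Seh1 peaks, 6.67% (3.37 to 11.6%; 7.67%), and 23 IgG peaks, 16.2% (10.6 to 23.3%; 6.21%). By gene, 38 had a Seh1 peak within 10 kb, 10.2% (7.33 to 13.8%), with 9.68% of protein-coding genes as background, and 22 had an IgG peak there, 5.91% (3.74 to 8.82%), with 2.36% as background. Within 100 kb the counts were 90 genes for Seh1, 24.2%, with 29.1% as background, and 48 genes for IgG, 12.9%, with 8.9% as background. These shares by gene include the block and were not computed without it. Of its 11 genes with an IgG peak, the nearest lay within 10 kb for all but Zfp534 and Zfp985. Each list had a single peak within 1 kb, at 0.269% of the 372 genes, with 1.11% of protein-coding genes for Seh1 and 0.115% for IgG.

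**Figure D5:**
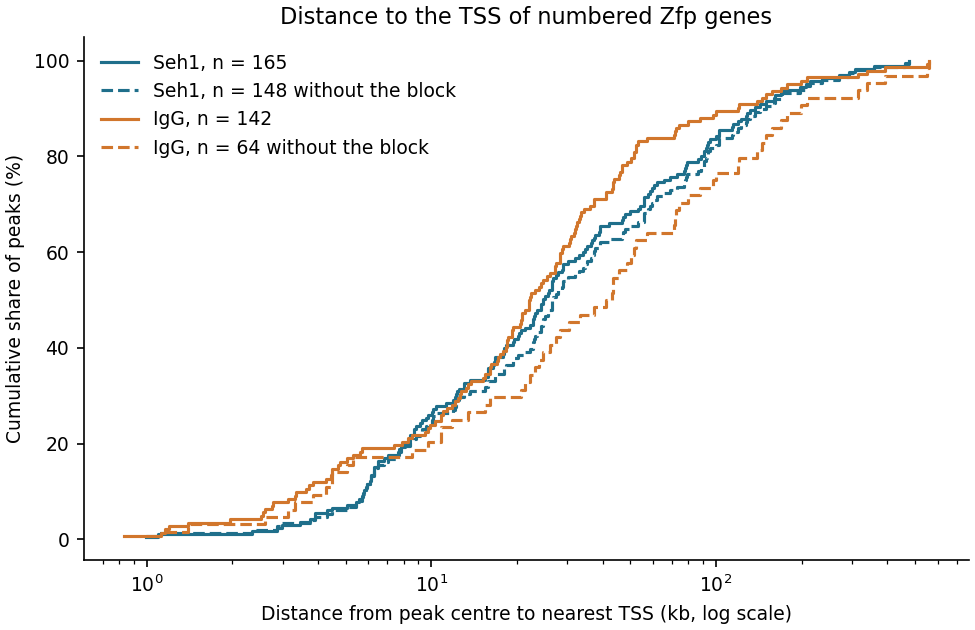
Cumulative share of peaks (vertical axis, percent) by distance from the peak centre to the nearest annotated start site in kb (horizontal axis, log scale), for the 165 Seh1 and 142 IgG peaks of numbered Zfp genes and, dashed, for the 148 and 64 outside the chromosome 4 block. Removing the block moves the IgG curve to the right, from a median of 22.1 to 42.1 kb, and the Seh1 curve from 24.6 to 26.7 kb.

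Peak centres lay inside the gene they were given to for 61 of 164 Seh1 peaks that could be placed, 37.2% (29.8 to 45.1%; 31.6% of the whole list), upstream for 70, 42.7%, and beyond the gene's end for 33, 20.1% (14.3 to 27.1%; 27.8%). Of 130 IgG peaks, 66 lay inside, 50.8% (41.9 to 59.6%; 28.0%), 48 upstream and 16 beyond. In the block 46 of 66 IgG peaks lay inside the gene, 69.7% (57.1 to 80.4%), and outside the block 20 of 64, 31.2% (20.2 to 44.1%). For Seh1 the shares were 10 of 16, 62.5% (35.4 to 84.8%), in the block and 51 of 148, 34.5% (26.8 to 42.7%), outside it. Counting genes whose own span held a peak centre, 58 had a Seh1 peak, 15.6% (12.1 to 19.7%), with 19.5% of protein-coding genes as background, and 34 an IgG peak, 9.14% (6.41 to 12.5%), with 6.26%. The genes of the block are included in these shares, which were not computed without them.

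The Seh1 peak nearest to a start site was that of Zfp109 on chromosome 7, at 994 bp, chr7:24236473-24236735, in an intron of the gene. Zfp442 followed at 1098 bp, in its first intron, and had an IgG peak at 24.6 kb. Zfp963 had a peak at 2352 bp in an RMER15-int element and Zfp738 a peak at 2879 bp in MTA_Mm-int, both of them long terminal repeat retrotransposons and both in first introns. Zfp619 had a peak 3.0 kb upstream, in the young LINE L1Md_T, and 2 more at 236 and 463 kb. Of these 5 genes, Zfp109, Zfp963, Zfp738 and Zfp619 had no IgG peak.

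Widths tell how far the caller found signal above the smallest width of a list, 243 bp for Seh1 and 236 bp for IgG. The median was 267 bp for Seh1 peaks of numbered Zfp genes and 266 bp over the whole list. It was 338.5 bp for their IgG peaks, against 266 bp. Outside the block the medians were 265 and 270 bp, and inside it 331 and 390 bp, so that at the median the peaks of both lists were wider in the block than outside it. After Zfp980, Zfp536 and Zfp644, the widest Seh1 peaks were those of Zfp608 with 625 bp and Zfp873 with 578 bp.

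Repeats, which KRAB zinc finger proteins are known to bind, lay under 68 of the 165 Seh1 peaks, 41.2% (33.6 to 49.1%; 39.8% of the whole list). Binding by the zinc finger proteins themselves was not measured. Long terminal repeats held 35 Seh1 peaks, 21.2% (15.2 to 28.2%; 17.0%), LINEs 11, 6.67% (3.37 to 11.6%; 10.6%), and SINEs 14, 8.48% (4.72 to 13.8%; 6.90%). Elements of the B1 (Alu) family held 11, 6.67% (3.37 to 11.6%), against 3.14% of the list. Repeats held 66 IgG peaks, 46.5% (38.1 to 55.0%; 52.0%). Inside the block this share was 26.9% (17.5 to 38.2%), against 34.4% of all IgG peaks there. Outside the block it was 70.3% (57.6 to 81.1%), against 52.6% of all IgG peaks there.

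No Seh1 peak of a numbered Zfp gene shared a base with an IgG peak of any gene, 0 of 165; over the whole list the share was 0.372%. The nearest approaches were in the block. At Zfp980 71 bases lay between a Seh1 and an IgG peak, and at Zfp982 the only Seh1 peak had IgG peaks on both sides, 377 and 575 bases away.

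Longer genes were more often given a peak. Numbered Zfp genes with a Seh1 peak had a median length of 24.5 kb and those without 16.5 kb; for IgG the medians were 29.5 and 16.1 kb. Among the shortest 124 genes 21% (14.2 to 29.2%) had a Seh1 peak, among the middle 124 19.4% (12.8 to 27.4%) and among the longest 124 37.9% (29.3 to 47.1%). Protein-coding genes of the same length ranges had 22.7, 28.3 and 44.9%. For IgG the shares were 6.45% (2.83 to 12.3%), 10.5% (5.70 to 17.3%) and 26.6% (19.1 to 35.3%), against 6.24, 7.78 and 16.8%. The chromosome 4 block is included here. All of its genes with an IgG peak, apart from Zfp992, are among the longest 124. Shares by length without the block were not computed.

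Of 15 numbered Zfp genes with a well-known role, 8 had a Seh1 peak, 53.3% (26.6 to 78.7%), and 3 an IgG peak, 20% (4.33 to 48.1%). Both intervals include the shares of all protein-coding genes, 31.9 and 11.3%. Among the KRAB genes, Zfp57, which protects imprinted methylation, had a Seh1 peak at 6.30 kb that lay at the end of the neighbouring gene Mog. Zfp809, which silences retroviruses in embryonic cells, had a Seh1 peak at 5.81 kb in its first intron, in an Lx8 LINE. Zfp568, which represses a placental transcript of Igf2, had 1 in intron 6 of 9 at 25 kb. None of these 3 had an IgG peak.

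Among the developmental regulators without a KRAB domain, Zfp521, which promotes neural fate in embryonic stem cells, had 3 Seh1 peaks. These lay in introns at 24.6 and 207 kb and 92.8 kb upstream, and its IgG peak lay 391 kb from the start site, beyond the gene. Zfp462, a nuclear zinc finger gene linked in humans to a developmental syndrome, had 3 Seh1 peaks, in its first intron at 15.8 kb, at 160 kb beyond the gene and at 477 kb upstream, and 5 IgG peaks between 97.3 and 558 kb. Zfp281, a regulator of pluripotency, had 1 Seh1 peak at 28.9 kb and Zfp365, which acts in neuronal morphology and genome stability, had 2 at 162 and 170 kb, all 3 beyond the gene. Zfp423 is described above. Zfp36, Zfp42 (Rex1, a marker of pluripotency), Zfp91, Zfp143 (a promoter-binding factor), Zfp148, Zfp207 and Zfp335 (mutated in human microcephaly) were given no peak. A Seh1 peak in an intron of Zfp148 was, however, assigned to the start site of a transcript with no gene name. In all, 15 Seh1 and 10 IgG peaks lay in a transcript of a numbered Zfp gene but nearer to the start site of another gene, and are not among the 165 and 142.

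The silencing partners of KRAB zinc finger proteins form the other part of the pathway. Of 24 such genes 11 had a Seh1 peak, 45.8% (25.6 to 67.2%), an interval that includes the 31.9% of all protein-coding genes, and 3 had an IgG peak, 12.5% (2.66 to 32.4%). Trim28, the corepressor itself, had none in either list. Setdb1, the histone methyltransferase, had a Seh1 peak in an exon at 18.3 kb, and Uhrf1, which guides maintenance DNA methylation, had 1 in an exon at 7.95 kb. Dnmt3a, a de novo DNA methyltransferase, had 4 Seh1 peaks, the nearest in an exon at 11.0 kb, and 1 IgG peak. Dnmt3b, Atf7ip, Cbx3, Hdac2, Morc3, Mphosph8, Pphln1 and Smarcad1 made up the rest of the 11, and Hdac2 and Smarcad1 also had an IgG peak.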

How the data were processed

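ChIP-seq peak lists of 1 Seh1 and 1 IgG library were analysed. Annotation was done by the authors against mm10 with annotatePeaks.pl of HOMER, per the file headers; it gave each peak a class, the nearest RefSeq start site with its distance, and that site's gene name. The submitters' processing notes name Bowtie2 and HOMER, with no version, and list the builds hg18 and hg38; the coordinates used here are mm10. The sources used here give neither the peak caller and its threshold, nor the treatment of multiply mapped or duplicate reads, nor the depth. Every peak had a deposited score of 0, so the lists hold no strength; positions, classes and distances of the deposited lists were used as they stand, per the file headers. Peaks were listed per library.

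Members were matched by symbol to the RefSeq gene table of GRCm38.p6 after 394 genes listed below 3 Mb were left out, which kept 49603 genes. Clusters, classes, distances and overlaps (at least 1 bp) were counted with Python 3.11.15, pandas 2.3.3, numpy 2.4.6 and scipy 1.17.1; the counting functions were checked on simulated data with known answers. A last-exon peak is one whose annotation text names exon n of n. Promoter windows were aligned end to end with Biopython 1.88 (match 1, mismatch -1, gap opening -3, gap extension -1). Intervals of shares are 95% exact binomial ones (Clopper-Pearson), and a count of 0 was bounded by 3 counts. With 1 library per group no test was made.

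The members and lists were chosen with earlier results of these data known. Named were genes with a last-exon peak, the 5 genes with the most peaks in each list, with the nearest and with the widest Seh1 peaks, and a list of 15 with a known role; any other was named after its values were seen. Alternatives changed the peaks kept, how a peak is given to a gene, the distance limit, the exon class, the overlap and the cluster gap. Protein sequences and the sequences under the peaks were not analysed here.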

Additional observations from a re-analysis of the deposited data

How the results depend on the processing

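The number of genes with a peak depended on how peaks were given to genes: 97 Seh1 genes became 58 where the centre had to lie inside the gene and 38 within 10 kb of the start site, and 54 IgG genes became 34 and 22. Other alternatives left 75 to 110 Seh1 genes and 43 to 57 IgG genes. With UTR, TTS and non-coding classes added, the exon share went from 3.64 to 9.09% for Seh1 and from 7.75 to 13.4% for IgG. With 3′ UTR and TTS classes added, last-exon peaks went from 3 to 11 for Seh1 and from 10 to 17 for IgG, and 6 of the 10 lay in an exon of the gene they were named for. Leaving out the chromosome 4 block, an alternative chosen after seeing the data, moved the IgG exon share to 0%, its last-exon peaks to 0 and its median distance from 22.1 to 42.1 kb. Seh1 peaks of numbered Zfp genes that met an IgG peak went from 0 to 2 where centres within 1 kb counted. Clusters numbered 15, 15 and 16 with gaps of 200, 100 and 500 kb. No paired analysis was possible because each group had 1 library. Depth is unknown, so a gene without a peak may lie below what either library could show.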
